A study of Mus musculus with 8 samples.

Results

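The S100 genes encode small calcium-binding proteins, and 9 of them (*S100a1*, *S100a4*, *S100a6*, *S100a8*, *S100a9*, *S100a10*, *S100a11*, *S100a13* and *S100b*) were followed by symbol in bulk RNA-seq of whole tibialis anterior (TA) muscle. They are 9 of the 18 S100 genes and of the 55401 genes listed in the expression table. The groups were 4 WT muscles (C57/Bl6 strain, no mutation named) and 4 *mdx5cv* muscles (the same strain, carrying the *mdx5cv* mutation of *Dmd*, the X-linked dystrophin gene, in every cell), all from male mice at 6 mo of age with no treatment named. The comparison asks how each S100 gene differs between dystrophic and healthy muscle.

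S100 proteins fold into paired EF-hands, most of them act as dimers, and on binding calcium they expose a surface that docks target proteins. S100A1 is the striated muscle member and binds the calcium release channel and pump of the sarcoplasmic reticulum, while S100A4, S100A6, S100A10 and S100A11 are found in migrating, dividing and membrane-repairing cells and bind myosin, annexins and other partners. S100A8 and S100A9 form calprotectin, an abundant protein pair of neutrophils and monocytes, S100A13 takes part in the non-classical secretion of growth factor FGF1, and S100B is best known from glia and Schwann cells.

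Of the 9 genes, 5 were higher in *mdx5cv* muscle, *S100a4* most, and *S100a1*, which had the highest level per kb of exon in both groups, was not called different. *S100a8*, *S100a9* and *S100b* had at most 7, 4 and 9 reads in any muscle. Values are normalized counts, the reads of a gene divided by a size factor for the muscle, and limma was run on log2(normalized count + 1) for the 13677 genes whose mean reached 10. A gene was called where its Benjamini-Hochberg adjusted p was under 0.05 and its log2 fold change was 1 or more in size. Of the 6 members that reached the minimum, 5 were called higher and 0 lower, where 10.3% of all genes tested were called higher. The groups did not overlap for the same 5 members, and did not overlap for 40.1% of all genes tested. *S100a4* had a WT mean under the minimum and passed it through its *mdx5cv* values. In whole muscle, fewer cells of a type and less RNA per cell cannot be told apart.

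The reads counted in genes, recovered from the normalized counts, summed to 13175524 to 14921057 per muscle. *Dmd* was lower in *mdx5cv*, at 6954 ± 857 in WT and 3964 ± 388 in *mdx5cv* (SD, n = 4; log2 fold change -0.81, SE 0.12, limma adjusted p = 0.000177), and the 5 fast fiber markers summed to at least 484954 normalized counts in every muscle. The sums of macrophage, fibroblast and regenerating fiber markers were highest in *mdx5cv* replicate 4, and WT replicate 2 had the lowest fast fiber sum of its group, so values without these muscles are given where they moved a result. The labels number the muscles 1 to 4 in each group and do not say that each came from a separate mouse, so the p-values measure the spread between these samples.

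The genes are printed with their start regions because 8 of the 9 members lie on chromosome 3 (GRCm38, GENCODE M21), where members that were called and a member that was not begin next to each other. In this annotation *S100a1* occupies chr3:90511034-90514392 on the minus strand and *S100a13* chr3:90514435-90524581 on the plus strand, so both genes start at the ends of the same 42 bases and are read in opposite directions. *S100a4* follows at chr3:90603771-90606045 and *S100a6* at chr3:90612882-90624181, both on the plus strand, with 6.84 kb between them. *S100a8* lies at chr3:90668978-90670035 on the plus strand and *S100a9* at chr3:90692632-90695721 on the minus strand. *S100a11* (chr3:93520488-93526287) and *S100a10* (chr3:93555080-93564643), both on the plus strand and 28.8 kb apart, lie beyond a gap of 2429.7 kb that follows *S100a7l2*, the last gene of the first block. *S100b* is alone on chromosome 10 (chr10:76253853-76261159, plus strand). The sequence between *S100a1* and *S100a13*, plus strand, and the bases just upstream of *S100a4*, the gene with the largest difference, and of *S100a11*, a tested member whose upstream bases held searched motifs, read as follows in RefSeq GRCm38.p6. Capitals mark the matched motifs.
S100a1 to S100a13 (chr3:90514393-90514434): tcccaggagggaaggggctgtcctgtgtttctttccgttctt
S100a4 upstream (chr3:90603520-90603769): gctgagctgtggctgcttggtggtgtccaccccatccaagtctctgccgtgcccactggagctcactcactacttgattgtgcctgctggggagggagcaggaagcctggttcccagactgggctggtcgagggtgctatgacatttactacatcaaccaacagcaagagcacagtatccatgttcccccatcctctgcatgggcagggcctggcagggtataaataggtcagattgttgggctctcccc
S100a11 upstream (chr3:93520246-93520487): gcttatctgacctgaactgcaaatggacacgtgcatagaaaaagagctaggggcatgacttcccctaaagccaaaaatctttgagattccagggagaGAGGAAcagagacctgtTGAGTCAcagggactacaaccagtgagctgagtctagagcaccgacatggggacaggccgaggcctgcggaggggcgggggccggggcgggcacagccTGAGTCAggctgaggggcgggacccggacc

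RefSeq promoters were matched for 8 of the 9 members, and *S100a10* was not searched. The motifs were searched on both strands of the 250 bases before each RefSeq start, as TGANTCA for AP-1, TTGCNNAA for C/EBP, GAGGAA for PU.1 and CAGCTG for the E-box of myogenic factors. *S100a11* held AP-1 matches beginning 136 and 38 bases before its RefSeq start and a PU.1 match at 153 bases. Of all 32851 RefSeq promoters, 6.75% held an AP-1 match and 23.25% a PU.1 match. The *S100a8* promoter held 2 PU.1 and 2 E-box matches and the *S100a9* promoter 1 C/EBP match, against 13% of all promoters with an E-box and 9.56% with a C/EBP match. The RefSeq start of *S100a8* lies 93 bases inside its GENCODE span. Its matches beginning 50, 36 and 22 bases before that start therefore fall within the gene span given above. The windows of *S100a1*, *S100a4*, *S100a6*, *S100a13* and *S100b* held none of the 4 motifs. The matches are letters in a window, and binding was not measured.

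*S100a1* was the S100 gene with the most transcript in these muscles. Its normalized counts were 746, 1004, 676 and 570 in WT replicates 1 to 4 and 585, 687, 636 and 500 in *mdx5cv*. The groups overlapped, with the highest value in WT replicate 2 and the lowest in *mdx5cv* replicate 4. The log2 fold change was -0.29 (SE 0.16, limma adjusted p = 0.157), a difference that did not pass the test. It was -0.14 without WT replicate 2, and -0.41 without WT replicate 4, where it passed the test without the fold minimum (adjusted p = 0.0467). Scaling every muscle to the same total moved the median of all genes from 0.00 to 0.36 on the log2 scale and *S100a1* to 0.06, which stays below that median.

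*S100a4*, which binds non-muscle myosin and marks motile mesenchymal and myeloid cells, rose most. Its normalized counts were 9.17, 12.1, 6.63 and 11.7 in WT and 145, 97.2, 82.8 and 207 in *mdx5cv*. Every *mdx5cv* muscle lay far above every WT muscle, with the highest value in replicate 4. The log2 fold change was 3.56 (SE 0.29, limma adjusted p = 2.28e-06), or 11.8-fold on the log2(normalized count + 1) scale. The exons of *S100a4* share 302 of their 584 bases with *Gm42674*, a gene model on the same strand that was listed at 0 reads in all muscles, so reads from the shared bases may be missing from the *S100a4* count.

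*S100a6*, or calcyclin, which binds the ubiquitin ligase adaptor CACYBP and annexins, had 128, 181, 118 and 157 normalized counts in WT and 344, 291, 310 and 545 in *mdx5cv*. The groups did not overlap, and *mdx5cv* replicate 4 again stood highest. It rose by a log2 fold change of 1.32 (SE 0.19, limma adjusted p = 0.000175). *S100a6* was also compared with *S100a4*, which lies before it in the cluster, within each muscle. The log2 ratio of *S100a4* to *S100a6*, with 1 added to both counts, averaged -3.77 ± 0.149 in WT (SD, n = 4) and -1.52 ± 0.281 in *mdx5cv*, a difference of 2.25. The groups did not overlap, and the exact two-sided permutation p was 0.0286, the smallest that 4 against 4 muscles can give, or 0.0571 after Benjamini-Hochberg adjustment over the 4 ratios tested.

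*S100a10*, which pairs with annexin A2 in a membrane-bound tetramer, had 68.8, 101, 79.6 and 83.7 normalized counts in WT and 195, 174, 138 and 266 in *mdx5cv*. All *mdx5cv* values lay above the highest WT value. *S100a10* rose by a log2 fold change of 1.18 (SE 0.19, limma adjusted p = 0.000353), and 1.01 without *mdx5cv* replicate 4, just past the fold minimum.

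*S100a13* starts 42 bases from *S100a1* in GENCODE and is read away from it. The RefSeq start of *S100a1* lies 62 bases inside its GENCODE span, so the RefSeq starts are further apart. It had 36.7, 36.2, 45.3 and 26.5 normalized counts in WT and 75.0, 92.4, 72.0 and 109 in *mdx5cv*. The groups did not overlap, and WT replicate 4 was lowest and *mdx5cv* replicate 4 highest. The log2 fold change was 1.25 (SE 0.20, limma adjusted p = 0.000345), beside -0.29 for *S100a1* on the other side of the shared bases.

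*S100a11*, a partner of annexin A1 and of membrane repair complexes, was low in WT and varied most there. Its normalized counts were 29.8, 3.29, 12.2 and 22.2 in WT and 62.1, 43.4, 52.2 and 94.3 in *mdx5cv*. WT replicate 2 held only 3 reads, and even the highest WT muscle lay below the lowest *mdx5cv* muscle. The log2 fold change was 2.11 (SE 0.49, limma adjusted p = 0.00402), and 1.54 without WT replicate 2 (adjusted p = 0.00295). Of the called members it had the largest SE.

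**Figure D1:**
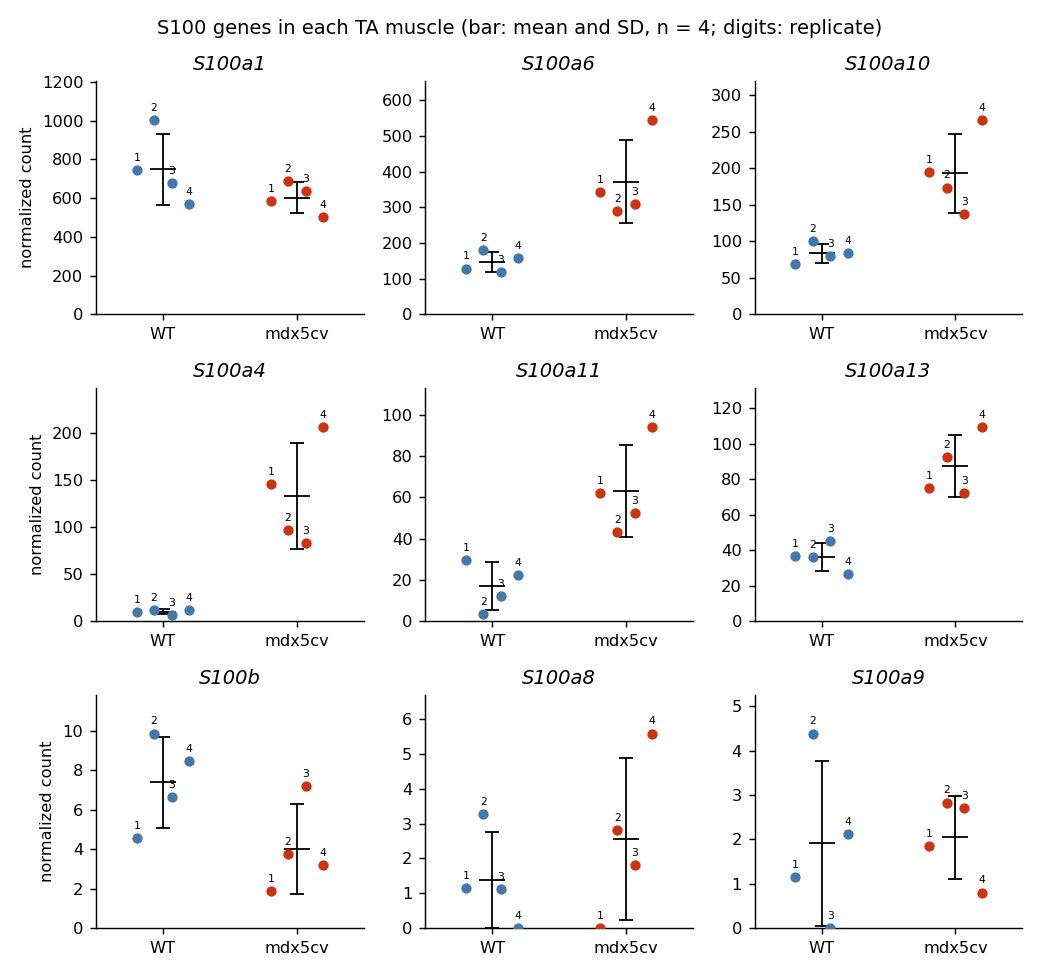
Normalized counts (y axis, linear, from 0, a scale for each gene) of the 9 members in 4 WT (blue) and 4 mdx5cv (red) TA muscles; digits are replicate numbers, and black bars are the mean and SD. S100a4, S100a6, S100a10, S100a11 and S100a13 do not overlap between groups and are highest in mdx5cv replicate 4, S100a1 overlaps, and the bottom row holds at most 9 reads per muscle.

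*S100a8*, *S100a9* and *S100b* were too low to test at this depth. *S100a8*, with *S100a9* the calprotectin pair, had 1.15, 3.29, 1.11 and 0 normalized counts in WT and 0, 2.83, 1.80 and 5.59 in *mdx5cv*. These are 5 reads summed over the WT muscles and 12 over the *mdx5cv* muscles, a depth-corrected ratio of 1.94 with an exact 95% interval of 0.635 to 7.02 that covers counting error only. *S100a9* had 1.15, 4.39, 0 and 2.12 normalized counts in WT and 1.85, 2.83, 2.70 and 0.799 in *mdx5cv*, or 7 against 9 reads, with a ratio of 1.04 (0.344 to 3.28). For both genes the muscles of the groups lay among each other, and a rise of *S100a8* within its interval was not detectable at this depth. The log2 ratio of *S100a9* to *S100a8* differed by -0.21 between the groups (exact two-sided permutation p = 0.8, adjusted p = 0.971).

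*S100b* had 4.58, 9.87, 6.63 and 8.47 normalized counts in WT and 1.85, 3.77, 7.20 and 3.20 in *mdx5cv*. The groups overlapped through *mdx5cv* replicate 3. The reads summed to 27 in WT and 18 in *mdx5cv*, a ratio of 0.538 (0.279 to 1.01), so the interval just includes no difference. With no minimum on the mean, limma gave adjusted p of 0.61 for *S100a8*, 0.759 for *S100a9* and 0.288 for *S100b*. Of 5 Schwann cell markers, genes of the glia that carry *S100b*, 4 were lower at an adjusted p under 0.05 by limma. Of all genes tested, 40.9% had such a p in either direction. The 5 markers summed to 227 to 413 normalized counts in WT and 120 to 209 in *mdx5cv*, with no overlap. The part of the Schwann cell signal in the *S100b* values was not tested.

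Levels were compared between genes as normalized counts per kb of exon. In WT the order was *S100a1* at 1079 ± 266 per kb, *S100a6* at 107 ± 20.8, *S100a10* at 68.7 ± 11, *S100a13* at 50.6 ± 10.8, *S100a11* at 33 ± 22.7 and *S100a4* at 16.9 ± 4.31, followed by *S100b* at 4.98 ± 1.55, *S100a9* at 3.66 ± 3.57 and *S100a8* at 2.0 ± 1.98 (SD, n = 4). Among the members, *S100a1* stood apart from *S100a6*, *S100a6* from *S100a10*, and *S100a4* from *S100b*. *S100a16*, which is not a member, had 96.2 ± 35.6 per kb in WT, and its range overlapped those of *S100a6* and *S100a10*. From *S100a10* to *S100a4*, and from *S100b* to *S100a8*, the ranges of genes next to each other in this order overlapped. In *mdx5cv* *S100a1* was still first at 867 ± 115 per kb, and *S100a4* had moved to the third place at 228 ± 96.0, after *S100a6* at 272 ± 85.8 and before *S100a10* at 159 ± 44.6. *S100a11* (123 ± 43.5) and *S100a13* (122 ± 24.2) were level, and *S100a9*, *S100a8* and *S100b* stayed under 4 per kb. In *mdx5cv* the ranges of neighbors in the order were apart only below *S100a1* and above the 3 lowest members.

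Summed per kb over all 18 S100 genes, the level averaged 1465 ± 254 in the WT muscles (SD, n = 4) and 1893 ± 177 in the *mdx5cv* muscles. The sum ran from 1218 to 1806 in WT and from 1733 to 2144 in *mdx5cv*, so the groups overlapped, and it was not tested. *S100a1* made up 73.0% ± 5.25 of that sum in WT and 46.4% ± 9.04 in *mdx5cv*. *S100a4* made up 1.17% ± 0.336 and 11.8% ± 3.98, and *S100a6* 7.37% ± 1.44 and 14.2% ± 3.11. The share of *S100a1* ran from 67.4% to 80.1% in WT and from 33.6% to 52.9% in *mdx5cv*, lowest in *mdx5cv* replicate 4, so the groups did not overlap. A share falls when other genes rise, and the *S100a1* counts themselves did not pass the test. The shared exon bases of *S100a4* make its level per kb uncertain.

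**Figure D2:**
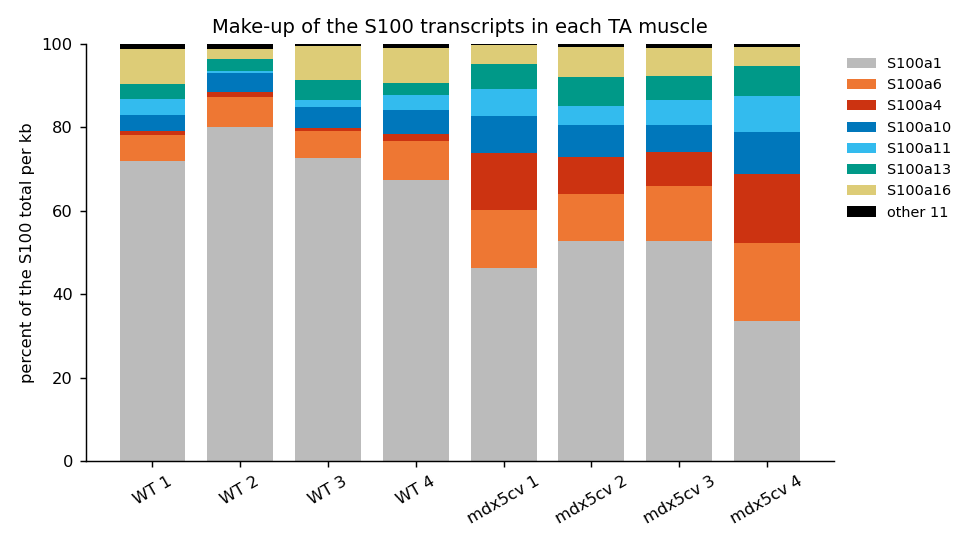
Percent of the summed S100 level per kb of exon (y axis) held by each S100 gene in each of the 8 muscles (x axis); black is the sum of the other 11 S100 genes. The gray part, S100a1, takes 67.4% to 80.1% in WT and 33.6% to 52.9% in mdx5cv muscles.

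The other 9 S100 genes of the table gave 1 gene high enough to test. *S100a16*, a widely expressed member that lies between *S100a13* and *S100a4*, had 207, 73.5, 177 and 164 normalized counts in WT and 135, 216, 188 and 155 in *mdx5cv*. The groups overlapped, with a log2 fold change of 0.23 (SE 0.27, limma adjusted p = 0.514), and of -0.09 without WT replicate 2, where *S100a16* was lowest. *S100a7l2*, *S100g* and *S100z* had 0 reads in all muscles, *S100a2*, *S100a3*, *S100a5* and *S100a14* at most 2 reads, and *S100a7a* at most 4.

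Along the chromosome, S100 genes that were called lay next to S100 genes that were not. From *S100a1* on, the order of the tested genes was *S100a1* (log2 fold change -0.29), *S100a13* (1.25), *S100a16* (0.23), *S100a4* (3.56) and *S100a6* (1.32), and after the gap *S100a11* (2.11) and *S100a10* (1.18). Of 126 other annotated genes within or up to 200 kb beyond the S100 genes, 9 passed the minimum, 0 were called higher and 1 was called lower. Of all 13677 genes tested, 1414 (10.3%) were called higher and 447 lower, and 9 genes are too few to set the neighbors apart from these shares. The gene called lower was *Npr1*, a natriuretic peptide receptor, with a mean of 209 in WT and 102 in *mdx5cv* (log2 fold change -1.05, SE 0.15, limma adjusted p = 0.000146). Its fold change fell under the minimum without WT replicate 2 (-0.99) or *mdx5cv* replicate 1 (-0.92), with a pseudocount of 10 (-0.98) and at equal totals (-0.69). The median log2 fold change of the 9 neighbors was 0.13 and that of all genes tested 0.00. The tested neighbors lie outside the stretch from *S100a1* to *S100a10*, where no other gene reached the minimum.

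**Figure D3:**
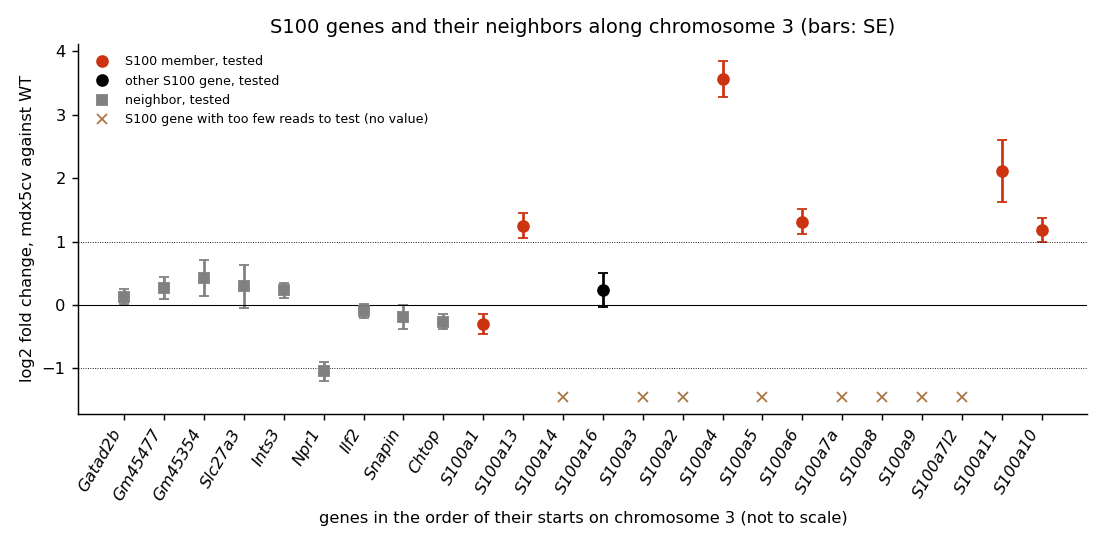
Log2 fold change of mdx5cv against WT (y axis, bars are SE) for S100 genes and tested neighbors in the order of their starts on chromosome 3 (x axis, not to scale); crosses at the bottom mark S100 genes with too few reads and carry no value. S100a1 and S100a16 lie near 0 between or beside S100a13, S100a4 and S100a6, which lie above the dotted line at a log2 fold change of 1.

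The transcripts of proteins that S100 members bind rose in part. Of 16 binding partners, 14 were tested. At an adjusted p under 0.05 by limma, 7 were higher and 2 lower, the share of all genes in either direction being 40.9%. The fold minimum was passed by 3, all of them higher, where 10.3% of all genes tested were called higher. The median log2 fold change of the 14 was 0.30. *Anxa2*, the partner of *S100a10*, had 218, 115, 200 and 228 normalized counts in WT and 732, 665, 614 and 1210 in *mdx5cv*, with no overlap (log2 fold change 2.07, SE 0.23, limma adjusted p = 2.18e-05). *Anxa1*, the partner of *S100a11*, had 125, 121, 116 and 95.3 in WT and 564, 354, 446 and 846 in *mdx5cv* (2.19, SE 0.21, adjusted p = 7.68e-06). Both were highest in *mdx5cv* replicate 4, as were their S100 partners.

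The balance within these pairs was compared as log2 ratios with 1 added to both counts. The ratio of *Anxa2* to *S100a10* was 1.65, 0.19, 1.32 and 1.43 in WT and 1.91, 1.93, 2.15 and 2.18 in *mdx5cv*. The groups did not overlap, and WT replicate 2 was far below the others. The difference was 0.89 (exact two-sided permutation p = 0.0286, adjusted p = 0.0571), and 0.57 without WT replicate 2. The ratio of *Anxa1* to *S100a11* averaged 3.02 ± 1.32 in WT (SD, n = 4) and 3.10 ± 0.0775 in *mdx5cv*, a difference of 0.08 (exact two-sided permutation p = 0.971, adjusted p = 0.971). The WT values ran from 2.03 to 4.83 and the *mdx5cv* values from 3.0 to 3.16 and lay within the WT range. The difference was 0.68 without WT replicate 2, the muscle with 3 *S100a11* reads.

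Among the muscle partners of S100A1, *Atp2a2*, the slow and cardiac calcium pump, rose with a log2 fold change of 1.68 (SE 0.19, limma adjusted p = 2.02e-05), from 222 to 342 normalized counts in WT to 741 to 1402 in *mdx5cv*. *Ryr1*, the calcium release channel, and *Atp2a1*, the fast pump, did not pass the test (0.00, adjusted p = 0.997, and 0.16, adjusted p = 0.617). *Myh9*, the non-muscle myosin bound by S100A4, rose by 0.94 (SE 0.13, adjusted p = 0.000131), and *Ahnak*, the large scaffold that binds S100A10 with annexin A2, by 0.78 (SE 0.12, adjusted p = 0.000212), both under the fold minimum. *Anxa11* (0.48) and the kinase gene *Stk38* (0.44) also rose. *Cacybp*, the partner of S100A6, was lower (-0.59, SE 0.12, adjusted p = 0.00154), and so was *Fgf1*, the growth factor exported with S100A13 (-0.69, SE 0.19, adjusted p = 0.011). Both falls are under the fold minimum and did not pass the test at equal totals (-0.23, adjusted p = 0.219, and -0.34, adjusted p = 0.13), where the median of all genes is 0.36. *Anxa6* (0.50) and *Atp2a1* (0.52) had an adjusted p under 0.05 there, close to that median, and *Myh9* (1.30) and *Ahnak* (1.14) passed the fold minimum. *Syt1* had 0 reads, and *Il1a* at most 3.

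The receptors for S100 proteins outside the cell did not move together. *Tlr4*, a receptor of S100A8 and S100A9, had 55.0, 85.6, 59.7 and 64.6 normalized counts in WT and 123, 141, 118 and 198 in *mdx5cv*, with no overlap (log2 fold change 1.11, SE 0.19, limma adjusted p = 0.000528), and the fold change was 0.95, under the minimum, without *mdx5cv* replicate 4. *Cd36*, a fatty acid carrier that also binds S100A8 and S100A9, fell from 2619 to 4909 normalized counts in WT to 1446 to 1906 in *mdx5cv* (-1.09, SE 0.17, adjusted p = 0.000231). It was -0.93 without WT replicate 2 and -0.74 at equal totals, both under the fold minimum. *Bsg*, a receptor of S100A9, was lower by limma (-0.36, SE 0.13, adjusted p = 0.0372), which no longer passed in several settings or at equal totals, where its value was 0.00. *Ager*, the receptor known as RAGE, never passed 3 reads.

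Macrophage, fibroblast and regenerating fiber markers were mostly higher in *mdx5cv*. Of 7 macrophage markers, 6 rose past the fold minimum, where 10.3% of all genes tested were called higher. The list summed to 541 to 843 normalized counts in WT and 3588 to 8578 in *mdx5cv*. *Itgam*, among the 6, had a WT mean of 3.88 and passed the minimum through its *mdx5cv* values. *Lyz2*, the myeloid lysozyme, rose with a log2 fold change of 3.69 (SE 0.23, limma adjusted p = 4.55e-07) and the lysosomal marker *Cd68* with 3.91 (SE 0.38, adjusted p = 7.35e-06). *Cd163*, a marker of resident macrophages, fell (-1.49, SE 0.21, adjusted p = 0.000131), while *Mrc1* of the same list rose (1.15, SE 0.19, adjusted p = 0.000401). Of 6 fibroblast markers 5 rose at an adjusted p under 0.05, which 40.9% of all genes tested had in either direction. *Col1a1* rose with 3.13 (SE 0.20, adjusted p = 4.69e-07), and the 6 summed to 5365 to 8125 in WT and 17679 to 31691 in *mdx5cv*. Without the collagens *Col1a1* and *Col3a1* the sum was 2399 to 5681 in WT and 3231 to 4288 in *mdx5cv*, with overlap. All 5 regenerating fiber markers rose past the fold minimum, beside the 10.3% of all genes tested that were called higher. *Myog* rose with 3.14 (SE 0.30, adjusted p = 7.61e-06), and the 5 summed to 118 to 143 in WT and 2151 to 8413 in *mdx5cv*. *Mymk* and *Chrng*, at a mean of 0.265 in WT, passed the minimum through their *mdx5cv* values.

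Most markers of neutrophils, the cells richest in calprotectin, had few reads. Of 11 neutrophil markers, 8 never passed 2 reads, and *Retnlg*, *Ngp*, *Camp* and *Elane* had 0 in all. *Csf3r*, the granulocyte growth factor receptor, which monocytes also carry, was the only one tested, with a log2 fold change of 2.88 (SE 0.43, limma adjusted p = 0.000193). Its WT mean of 6.02 is under the minimum of 10, which it passed through its *mdx5cv* mean of 52.9. The list summed to 7.42 to 15.5 in WT and 27.0 to 104 in *mdx5cv*, where *Csf3r* alone ran from 23.4 to 91.9. *Mmp8*, with at most 12 reads, had a mean of 1.12 in WT and 6.36 in *mdx5cv*, and the groups overlapped. *Il1r2*, with at most 3 reads, had a lower mean in *mdx5cv*, also with overlap. Both stayed under the minimum, and the amount of neutrophils in the muscles was not tested.

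Of the other lists, the 4 endothelial markers were all lower, 3 of 5 adipocyte markers were lower and 2 of 5 fast fiber markers were lower at an adjusted p under 0.05, which 40.9% of all genes tested had in either direction. The adipocyte markers *Lep* and *Cidec*, at means of 3.67 and 7.39 in *mdx5cv*, passed the minimum through their WT values. Of 3 satellite cell markers only *Pax7* rose (0.91, SE 0.24, limma adjusted p = 0.00925, under the fold minimum). In *mdx5cv* the order of the muscles from high to low was 4, 1, 2, 3 for *S100a4*, *S100a10* and the macrophage and neutrophil sums, 4, 1, 3, 2 for *S100a6*, *S100a11* and the regenerating fiber and satellite cell sums, 4, 2, 1, 3 for *S100a13*, and 4, 3, 1, 2 for the fibroblast sum. *S100a1* had the order 2, 3, 1, 4, as did the fast fiber sum and also *S100a9*, at only 1 to 3 reads in the *mdx5cv* muscles. Of the sums that were lower in *mdx5cv*, the adipocyte sum had the order 4, 2, 3, 1. The Schwann cell sum had 2, 4, 3, 1 and the endothelial sum 3, 2, 1, 4. The neutrophil sum was mostly *Csf3r* in the *mdx5cv* muscles. The part of these cell types in the S100 values was not tested. Without *mdx5cv* replicate 4 all 5 members were still called.

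**Figure D4:**
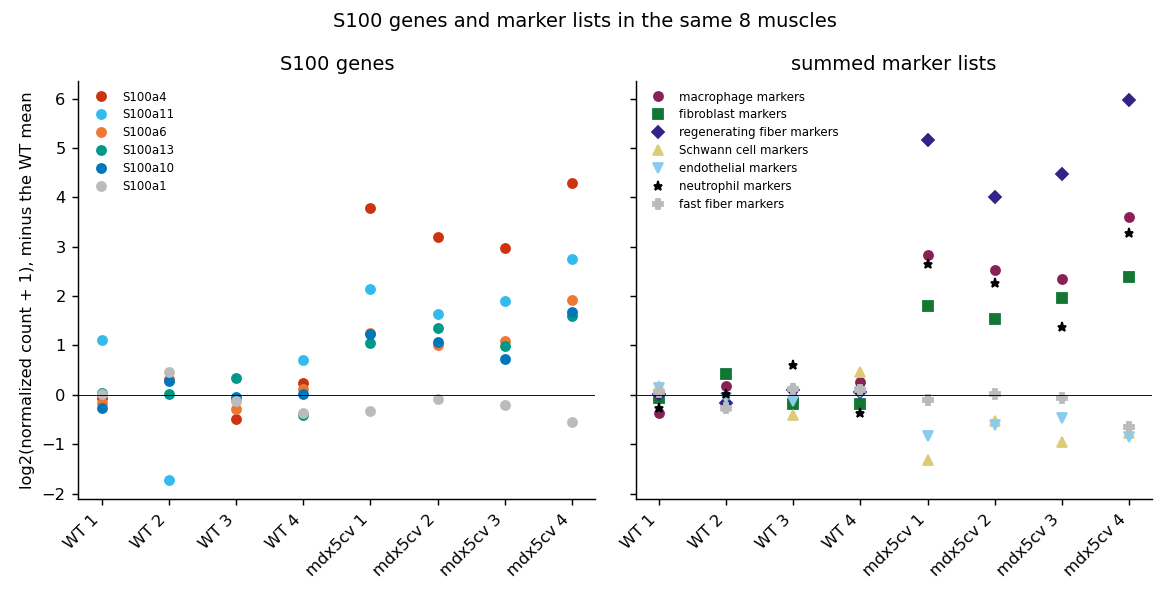
Log2(normalized count + 1) minus the WT mean (y axis) of the 6 tested S100 members (left) and of the summed marker lists (right) in the same 8 muscles (x axis). The S100 members other than S100a1 and the macrophage, fibroblast and regenerating fiber sums lie above 0 in the mdx5cv muscles and are highest in replicate 4, while the Schwann cell and endothelial sums lie below 0.

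The calls were compared over 18 other settings of the same data. The log2 fold change ranged from 2.78 to 3.90 for *S100a4*, from 1.51 to 2.49 for *S100a11*, from 1.12 to 1.67 for *S100a6*, from 1.07 to 1.6 for *S100a13* and from 1.01 to 1.53 for *S100a10*. All 5 were called in every setting except a minimum of 10 in every muscle, which left 3 called. *S100a4* missed that minimum in WT replicates 1 and 3, and *S100a11* in WT replicate 2. *S100a1* ranged from -0.41 to 0.06.

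**Figure D5:**
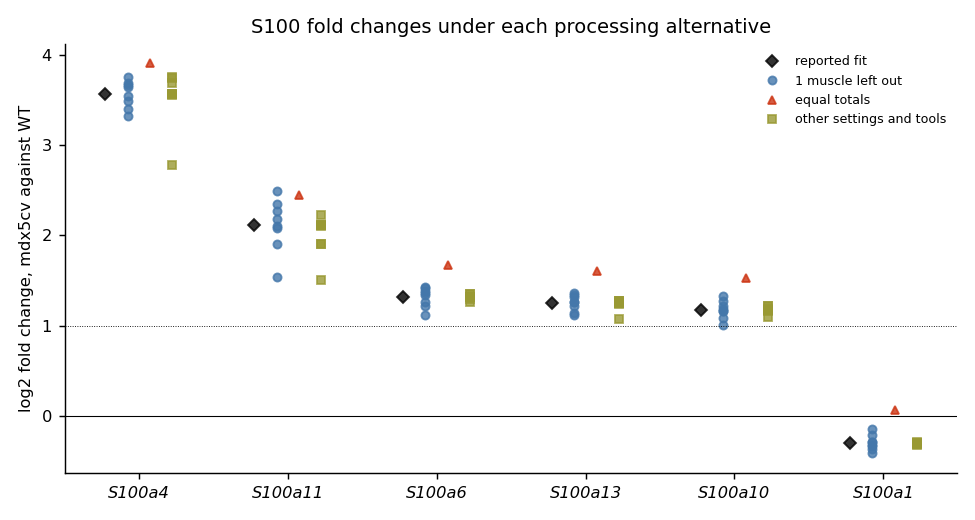
Log2 fold change of mdx5cv against WT (y axis) of the 6 tested S100 members in the reported fit (diamonds), with each muscle left out in turn (circles), at equal totals (triangles) and in the other settings and tools (squares). The dotted line is the fold minimum; S100a10 comes closest to it with 1.01, and S100a1 crosses 0 only at equal totals.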

How the data were processed

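The 4 WT and 4 *mdx5cv* TA muscles were grouped by their titles. Per the labels, the libraries were stranded total RNA libraries, and the submitters' processing notes name Trim Galore 0.6.4, STAR 2.6.0c, SAMtools 1.9, featureCounts, DESeq2 1.26.0, R 3.6.2 and mm10. Whether counting used strand is not given in the sources used here. The authors deposited a signal per gene, which is the read count divided by a size factor. Whole reads were recovered for 100% of the values (tolerance 1e-06). Replicates differed beyond sampling noise, with chi-square per degree of freedom of 9.27 to 42.2.

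Genes with a mean of at least 10 were compared with limma 3.58.1 (R 4.3.3) on log2(normalized count + 1), with eBayes trend, two-sided, Benjamini-Hochberg over 13677 genes. The groups were also compared with edgeR 4.0.16 and DESeq2 1.42.0 on recovered reads, pseudocounts of 0.1 and 10, other filters and scalings, a replicate block and each muscle left out. Fits were tested on simulated data. Ratios were compared by exact permutation over 70 arrangements, with the Benjamini-Hochberg adjustment from scipy 1.17.1. The named genes are the members and fixed lists of other S100 genes, partners, receptors and markers; *Npr1*, *S100a2* and *Gm42674* were added after their values were seen. The members and lists were chosen with earlier results of these data known. 1 gene of the marker lists is not reported here.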

Additional observations from a re-analysis of the deposited data

Results flagged for a closer look

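In 94 sets of 4 muscles (the named genes, the 4 ratios and the marker sums in each group), a muscle standing apart from the other 3 was looked for with Dixon's gap at 95%, which flags about 1 set in 20 by chance, or 4.7 here. It was found in 2. The log2 sum of the fast fiber markers was 19.27 in WT replicate 2 and 19.6 to 19.65 in the other WT muscles. The log2 sum of the satellite cell markers was 8.066 in WT replicate 4 and 7.62 to 7.695 in the others. No S100 member was among them.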

How the results depend on the processing

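Over 18 alternatives, 33 single genes gave 590 values, of which 567 kept their direction and their side of an adjusted p of 0.05, 10 fell short of it, 4 newly passed it and 9 changed sign. With the fold minimum added, 7 values of 3 genes (*Cd36*, *Npr1*, *Tlr4*) lost the call and 8 values of 3 genes (*Ahnak*, *Myh9*, *Pax7*) gained it. The genes past the threshold numbered 1861, and 2844 with no filter on low values, 1004 where all 8 values had to reach 10, 2502 with DESeq2 and 1595 to 1991 with each muscle left out. At equal totals 91.5% of 2466 were higher, against 76.0% of 1861. The members called numbered 5, and 3 under that filter.

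At equal totals the log2 fold changes of *S100a1* (0.064), *Sugt1* (0.15), *Ryr1* (0.36), *Stk38l* (0.11) and *Bsg* (0.0017) turned positive. With each muscle left out, *Ryr1* ran from -0.093 to 0.091, and *S100a16* from -0.090, when WT replicate 2 was dropped, to 0.40. With a pseudocount of 0.1, the *S100a9* to *S100a8* difference was 0.22 and the *Anxa1* to *S100a11* difference -0.024. With each muscle left out these ran from -0.71 to 0.41 and from -0.25 to 0.68. The causes were not tested.

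Whether the replicate numbers pair the muscles was not tested. Deviations of same-numbered muscles correlated at 0.05, 0.031, 0.072 and 0.146, and those of differently numbered muscles at -0.148 to 0.074. Not every muscle correlated best with its own number. With the replicate block 1882 genes and the same 5 members were past the threshold, and the *S100a1* fold change of -0.29 had a limma adjusted p of 0.0496. The differences in the 4 ratios were then -0.21, 0.89, 0.08 and 2.25. Their test flipped the signs of the differences between same-numbered muscles. With 4 pairs that test cannot give a p under 0.05, so it decides nothing about the ratios. Counting limits the 3 members under 10 reads per muscle.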
